A study of Rattus norvegicus with 6 samples.

Results

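The genes described are the nuclear genes of the respiratory chain and ATP synthase in the rat thyroid, chosen by symbol: those starting with Ndufa, Ndufb, Ndufc, Ndufs or Ndufv (complex I), Sdha to Sdhd (complex II), Uqcr together with Cyc1 (complex III), Cox4 to Cox8 followed by a letter (complex IV) and Atp5 (complex V, the ATP synthase). The muscle isoforms Cox6a2, Cox7a1 and Cox8b were left out of the set by the rule, and so were the complex I assembly factors whose symbols start with Ndufaf. The rule found 79 of the 15388 genes in the count tables. Of these, 73 code for subunits or their isoforms, namely 30 of complex I, 4 of complex II, 8 of complex III, 15 of complex IV and 16 of complex V, and 6 share only the name stem (the assembly factors Sdhaf1 to Sdhaf4, with Atp5s and Atp5sl). Ndufa4 and Ndufa4l2 carry a complex I symbol and were counted with complex IV, to which Ndufa4 is now assigned. Subunits with no entry in the count tables, such as Ndufab1 of complex I, are not covered by these numbers.

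Thyroids of adult Sprague-Dawley rats that were not pregnant (NP) were compared with thyroids taken in late pregnancy (LP), on day 18 after counting the morning of the vaginal plug as the first day, with 3 libraries in each group. No transgene or agent is named for either group, and the age of the animals is not given in the sources used here. Polyadenylated RNA was sequenced, and the reads counted on genes came to 2752144 to 2965936 per NP library and 3224104 to 3449857 per LP library, at which 3 reads correspond to 0.893 to 1.08 CPM, a limit of counting error only. The unit of level is CPM, a count per 1e+06 reads after TMM scaling of the libraries. CPM values are not scaled to transcript length, so they compare 1 gene between libraries and not different genes with each other. Values of the 3 libraries are listed in the order of replicates 1, 2 and 3. Replicates 2 and 3 of either group agreed within sampling noise (chi-square per degree of freedom 1.02 in NP and 0.995 in LP, against 3.70 to 4.11 between replicate 1 and either of them), so replicates 2 and 3 were averaged into 1 sample and each mean ± SD has n = 2. Replicate 1 also stood apart from the others in both groups, with Acta1 (skeletal muscle actin) at 0 reads in replicate 1 of either group and 144 to 186 reads in the remaining libraries. Changes are log2 fold changes of LP against NP from edgeR's quasi-likelihood test on the 6 libraries as deposited, with p-values adjusted over 11738 genes. The words "higher", "lower", "rose" and "fell" are used of genes with an adjusted p under 0.05. The test prints no standard error (SE). Each SE was worked back from the change and its test statistic, and it can be smaller than counting error alone. The labels and methods give 3 rats for each group but do not say which rat each library came from, and with replicates 2 and 3 alike the p-values measure the spread between these libraries, which may be technical.

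The respiratory chain takes electrons from NADH at complex I and from succinate at complex II, hands them through ubiquinone to complex III and through cytochrome c to complex IV, where oxygen is reduced. Complexes I, III and IV pump protons across the inner mitochondrial membrane, and complex V uses the return of the protons to make ATP. Most subunits are coded in the nucleus, translated in the cytosol and imported, and a small core is coded in mitochondrial DNA, so both genomes supply parts of complexes I, III, IV and V, while complex II is wholly nuclear. In the thyroid, follicular cells spend ATP on iodide uptake through the sodium gradient and on making thyroglobulin.

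Several of these genes are textbook targets of nuclear respiratory factor 1 (NRF1) and of the ETS family factor GABP, so their promoters were searched for the letters of both sites on both strands. The window was 250 bases before to 50 bases after the start of the gene, with RefSeq sequences of the GRCr8 build. The NRF1 letters were GCGC, then any base, then TGCGC, and the ETS letters were CCGGAAGN. The 2 motifs were counted separately, and neither contains the other. A promoter entry was matched for 68 of the 79 genes. Among the genes not matched were Ndufa8, Ndufb9, Cyc1, Uqcrb, Cox4i2, Cox6a1, Cox6c, Atp5h, Atp5hl1 and Atp5sl. The NRF1 letters occurred in 13 of the 68 promoters (19.1%) and the ETS letters in 22 (32.4%), with 1 or the other in 33 (48.5%). Among all 33469 promoters of the same length the shares were 4.25%, 8.73% and 12.2%, and among the 21851 of protein coding genes they were 5.67%, 10.7% and 15.3%. The share with either motif was 47.3% (26 of 55) among the genes that were higher in LP and 53.8% (7 of 13) among the others. The others included Cox6b2, which was not tested, and Atp5s and Sdhaf1 to Sdhaf4, which share only the name stem. Each of Sdhaf1 to Sdhaf4 held a motif, and the only subunits of this group that did were Ndufs5, Ndufv3 and Cox8a. A match describes the letters only and is not evidence of binding.

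Printed first are the promoters of the 3 genes with the largest rise that have an entry and of Cox8a, the only one of the 79 genes called lower, by a test that did not hold in 5 alternatives. Sdha was added after the matches were seen, because its promoter holds 3 copies of the NRF1 letters. Capitals mark the matches. The windows lie at chr17:34186352-34186651 on the plus strand (Uqcrfs1), chr9:72073556-72073855 on the minus strand (Ndufs1), chr7:10110449-10110748 on the minus strand (Ndufs7), chr1:213833574-213833873 on the minus strand (Cox8a) and chr1:30764303-30764602 on the plus strand (Sdha).
Uqcrfs1: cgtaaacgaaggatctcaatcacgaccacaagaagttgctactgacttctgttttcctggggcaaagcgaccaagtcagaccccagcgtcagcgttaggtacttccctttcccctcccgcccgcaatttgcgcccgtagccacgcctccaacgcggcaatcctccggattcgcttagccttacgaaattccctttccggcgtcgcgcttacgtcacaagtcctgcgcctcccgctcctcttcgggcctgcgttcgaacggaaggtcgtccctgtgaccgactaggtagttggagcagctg
Ndufs1: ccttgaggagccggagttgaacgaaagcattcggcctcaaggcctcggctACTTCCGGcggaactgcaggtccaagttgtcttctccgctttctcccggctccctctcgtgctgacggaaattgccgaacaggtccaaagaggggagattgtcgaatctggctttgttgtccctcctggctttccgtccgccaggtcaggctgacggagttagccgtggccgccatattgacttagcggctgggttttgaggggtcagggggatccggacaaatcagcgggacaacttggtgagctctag
Ndufs7: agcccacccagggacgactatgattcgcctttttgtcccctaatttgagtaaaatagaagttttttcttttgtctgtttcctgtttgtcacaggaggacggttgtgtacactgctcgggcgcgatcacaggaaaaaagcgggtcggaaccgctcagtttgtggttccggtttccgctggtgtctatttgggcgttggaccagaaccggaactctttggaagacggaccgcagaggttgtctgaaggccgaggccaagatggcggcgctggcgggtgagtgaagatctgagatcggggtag
Cox8a: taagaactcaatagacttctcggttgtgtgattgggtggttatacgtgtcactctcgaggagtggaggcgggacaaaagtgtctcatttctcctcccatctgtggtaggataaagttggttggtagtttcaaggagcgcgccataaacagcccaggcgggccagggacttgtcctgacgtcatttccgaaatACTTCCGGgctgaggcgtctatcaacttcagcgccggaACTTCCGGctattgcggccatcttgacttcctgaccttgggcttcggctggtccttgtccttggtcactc
Sdha: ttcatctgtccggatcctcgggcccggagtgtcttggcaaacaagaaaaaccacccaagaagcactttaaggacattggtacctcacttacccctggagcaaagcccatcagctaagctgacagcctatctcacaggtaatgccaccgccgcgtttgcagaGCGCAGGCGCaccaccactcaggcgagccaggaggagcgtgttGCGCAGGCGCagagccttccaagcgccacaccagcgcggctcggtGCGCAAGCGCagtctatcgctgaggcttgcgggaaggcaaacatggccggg
The promoters of Uqcrfs1 and Ndufs7 held neither motif. The ETS letters began at position -200 from the start in Ndufs1 and at -58 and -20 in Cox8a, on the strand opposite to the gene in each case. Of the 4 genes chosen by their change, Cox8a carried 2 matches and 2 of the 3 that rose carried none. In Sdha the NRF1 letters began at -89, -46 and -1, with no position 0 between the bases before and after the start.

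Most of the nuclear respiratory chain genes were expressed at a higher level in LP. Of the 79 genes, 75 passed the filter on low counts, and 61 of these were higher in LP and 1, Cox8a, was lower. The call of Cox8a was lost in 5 of the alternatives, whose values stand with complex IV. Over all 11738 genes tested, 15.3% were higher and 11.7% lower. The median log2 fold change was 0.52 for the 75 genes and -0.01 for all genes. The change was moderate for most of them, and only 6 rose more than 2-fold, against 4.9% of all genes. They included Uqcrfs1, Ndufs1, Ndufs7, Atp5g1 and Cyc1. In 62 genes every LP library lay above every NP library (21.2% of all genes), and in 3 genes, Sdhaf1, Cox6a1 and Cox8a, every LP library lay below every NP library (18.9% of all genes). The 79 genes accounted for 0.837% to 0.848% of the reads of each NP library and 1.27% to 1.30% of each LP library. All 61 genes that were higher had a positive log2 ratio both in replicate 1 and in replicates 2 and 3 when these were taken separately, with medians of 0.55 and 0.52 over the 75 genes.

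**Figure D1:**
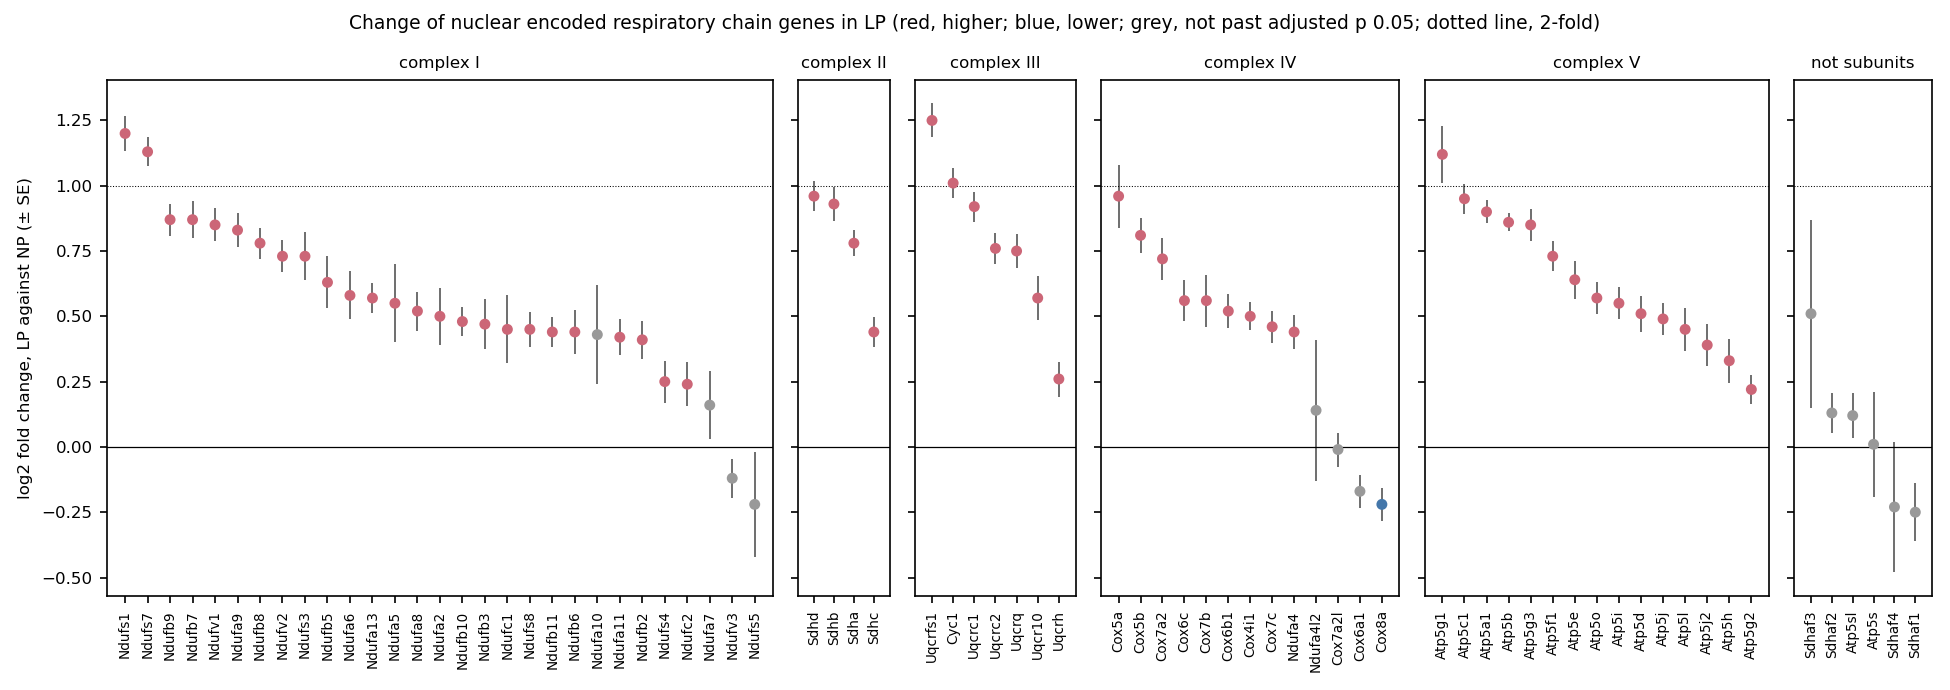
Log2 fold change of LP against NP (vertical axis, points, with bars of 1 SE) for the genes that passed the filter (1 complex I gene is not drawn), arranged by complex and sorted from the largest to the lowest. The bars use the SE worked back from the test, which can be smaller than counting error alone. Red points were higher in LP, the blue point (Cox8a) was lower and grey points did not pass an adjusted p of 0.05. All tested subunits of complexes II, III and V are red, while complex IV runs from 0.96 down to -0.22, and the 6 genes that share only the name stem are all grey.

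**Figure D2:**
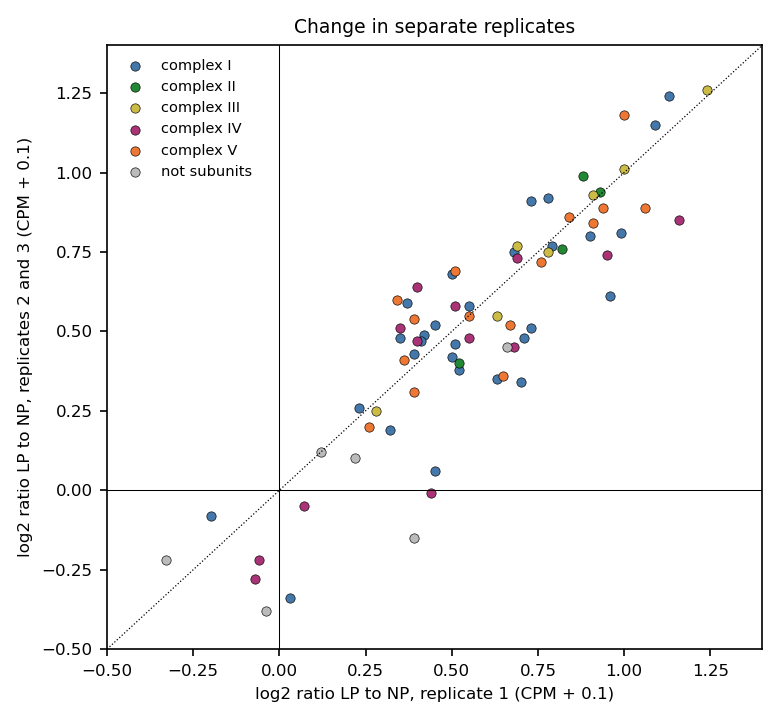
Log2 ratio of LP to NP for the same genes as in the plot of changes by complex, in replicate 1 (horizontal axis) and in replicates 2 and 3 (vertical axis), each from CPM + 0.1, with colours for the complexes and grey for genes that are not subunits. The dotted line marks equal ratios, and all genes drawn that were higher in LP lie in the upper right corner, above 0 on both axes.

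The LP libraries also held far more RNA of skeletal muscle genes. Of 27 skeletal muscle markers, 21 were in the tables and 18 passed the filter, of which 16 were higher in LP. The tested markers that were not called were Acta1 (log2 fold change 0.11) and Pygm (0.29). Both had 0 reads in replicate 1 of either group, and Acta1 measured 54.6 and 47.5 CPM in NP replicates 2 and 3. The summed level of the 21, Acta1 included, was 35.9 to 90.1 CPM in the NP libraries and 6345 to 6685 CPM in the LP libraries. In each NP library 5 to 7 of the 21 genes were at 0, beside 4, 0 and 0 in the LP libraries. Skeletal muscle is rich in respiratory chain transcripts, and pregnancy and muscle RNA went together in all 6 libraries, so the 2 cannot be told apart here. The part of muscle RNA in the changes given below was not tested. Brown fat, another tissue rich in mitochondria, gave 5.26 to 9.32 CPM in NP and 1.92 to 5.66 CPM in LP over 4 of its 5 markers, and Ucp1, which defines it, had 9 to 12 reads in NP and 2 to 4 reads in LP. None of 5 tested white fat markers passed the test. Among 10 follicular cell markers 3 were higher (Nkx2-1, Duox2 and Duoxa2, at log2 fold changes of 0.28, 0.29 and 0.48) and 2 lower. The lower ones were Slc5a5, the iodide transporter (-0.94, adjusted p = 3.08e-10), and Tshr (-0.68, adjusted p = 3.99e-07). Tg, the thyroid hormone precursor, had a log2 fold change of 0.06 and was not called. Among 5 markers of C cells and parathyroid, 2 were lower. The 3 airway markers tested were higher, with 2.51 to 6.59 CPM in NP and 22.0 to 22.4 CPM in LP summed over the 4 in the tables. In such whole tissue samples, fewer cells of a type and less RNA per cell cannot be told apart.

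For complex I, the NADH dehydrogenase, 26 of the 30 subunits were higher in LP and none was lower, with a median log2 fold change of 0.51 and a range from -0.22 to 1.20. The summed level of the 30 genes was 2011 ± 30.8 CPM in NP and 3232 ± 37.1 CPM in LP (SD, n = 2), a ratio of 1.61. The largest changes belonged to core subunits. All 7 nuclear core subunits, which include those that bind the flavin and the iron-sulfur clusters, were higher, with a median of 0.85, and their summed level was 1.91 times as high in LP. Of the 23 accessory subunits 19 were higher, with a median of 0.47 and a summed level 1.43 times as high. The difference between the core and accessory subunits was not tested.

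Ndufs1, the large iron-sulfur subunit, measured 109, 92.0 and 98.5 CPM in NP and 239, 217 and 232 CPM in LP. The groups were well apart, and the log2 fold change was 1.20 (SE 0.068, adjusted p = 2.91e-10). Ndufs7, which holds the last iron-sulfur cluster before ubiquinone, measured 87.5, 81.2 and 83.0 CPM in NP and 187, 184 and 182 CPM in LP, which is a log2 fold change of 1.13 (SE 0.056, adjusted p = 4.6e-11). In both genes all LP libraries lay at about the same height. Ndufv1, which binds NADH and the flavin, rose by 0.85 (SE 0.063), from 181 ± 16.6 to 319 ± 2.36 CPM. Ndufv2 and Ndufs3 both rose by 0.73 and Ndufs8 by 0.45, and each of these binds iron-sulfur clusters or supports the subunits that do. Ndufs8, although a core subunit, lay just under the median of the accessory subunits.

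Among the accessory subunits, which surround the core without taking part in catalysis, all 9 genes with Ndufb symbols were higher (0.41 to 0.87), as were 7 of 9 with Ndufa symbols and both Ndufc genes. The lowest subunits of complex I were not called. Ndufs5 measured 15.1, 16.1 and 11.5 CPM in NP and 15.4, 11.0 and 10.4 CPM in LP, with a log2 fold change of -0.22 (SE 0.20, adjusted p = 0.475). Ndufv3 measured 77.8, 72.6 and 66.6 CPM in NP and 68.0, 65.8 and 66.1 CPM in LP, and Ndufa7 measured 27.6, 41.7 and 33.0 CPM in NP and 37.8, 39.6 and 37.5 CPM in LP. The groups overlapped in all 3 of these genes. The remaining subunit without a call, Ndufa10, named here after its values were seen, lay higher in every LP library (8.25, 12.8 and 11.9 CPM in NP, 13.5, 14.6 and 16.7 CPM in LP) but had few reads (adjusted p = 0.111). Ndufc2, also named after its values were seen, passed at 0.24 on the log2 scale (adjusted p = 0.0465), and the call was lost without NP replicate 1, 2 or 3 or LP replicate 1 or 2, at adjusted p-values of 0.0919 to 0.164, and also with replicates 2 and 3 summed (0.0698), library totals (0.155), no filter (0.061) and DESeq2 (0.373). Ndufs4 (0.25, adjusted p = 0.0278), Ndufa5 (0.55, adjusted p = 0.0106) and Ndufc1 (0.45, adjusted p = 0.0133), named for the same reason, also had calls that did not hold throughout. Ndufs4 lost its call without NP replicate 2 or 3 or LP replicate 1 or 2 (0.0507 to 0.162), and also with replicates 2 and 3 summed (0.0616), library totals (0.104) and DESeq2 (0.302). Ndufa5 lost it without NP replicate 1 (0.0516) or LP replicate 2 (0.0682) and with DESeq2 (0.101), and Ndufc1 without NP replicate 3 (0.0654) or LP replicate 3 (0.0555) and with DESeq2 (0.187). The call of Ndufa2 (0.50, adjusted p = 0.00292), also named for this reason, was lost with DESeq2 only (0.0769).

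Complex II, succinate dehydrogenase, links the citric acid cycle to the chain and has 4 subunits. All 4 were higher in LP, with a median log2 fold change of 0.86 and a summed level that went from 645 ± 3.71 to 1099 ± 24.9 CPM, 1.70-fold. Sdhd, a membrane anchor, measured 99.0, 91.4 and 90.3 CPM in NP and 182, 182 and 179.9 CPM in LP, with a log2 fold change of 0.96 (SE 0.057, adjusted p = 5.31e-10). Sdhb, the iron-sulfur subunit, measured 101, 103 and 88.3 CPM in NP and 194, 180.3 and 186 CPM in LP (0.93, SE 0.064). Sdha, the flavin subunit whose promoter is shown above, measured 297, 308 and 300.2 CPM in NP and 524, 509 and 525 CPM in LP (0.78, SE 0.049). In these 3 genes the LP libraries lay far outside the range of the NP libraries. Sdhc, the other anchor, had the lowest change of the complex, from 151, 153 and 151 CPM in NP to 216, 197 and 206 CPM in LP (0.44, SE 0.058). None of the 4 assembly factors of complex II was called. Sdhaf1 to Sdhaf4 had log2 fold changes of -0.25, 0.13, 0.51 and -0.23, and Sdhaf3 had no more than 16 reads in any library.

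In complex III, the cytochrome bc1 complex, all 7 subunits that could be tested were higher, with a median log2 fold change of 0.76. The summed level of its 8 genes went from 686 ± 10.7 to 1254 ± 24.0 CPM, a ratio of 1.83. Uqcrfs1, the Rieske iron-sulfur protein, rose most of the 79 genes. It measured 101, 98.3 and 114 CPM in NP and 239, 255 and 251 CPM in LP, which is a log2 fold change of 1.25 (SE 0.065, adjusted p = 9.08e-11). Cyc1, cytochrome c1, measured 134, 129.5 and 138 CPM in NP and 269, 273 and 264 CPM in LP, which is a log2 fold change of 1.01 (SE 0.057, adjusted p = 2.9e-10). These 2 redox subunits and the 2 core proteins Uqcrc1 (0.92, SE 0.057) and Uqcrc2 (0.76, SE 0.059) had a median of 0.96, and their summed level was 1.98 times as high in LP. The small subunits without a cofactor also rose, Uqcrq by 0.75 (SE 0.066), Uqcr10 by 0.57 (SE 0.085) and Uqcrh, the hinge protein, by 0.26 (SE 0.067). Uqcrh measured 75.3, 77.9 and 84.4 CPM in NP and 91.4, 95.5 and 98.0 CPM in LP (adjusted p = 0.00748), with no overlap of the groups, but was not called by DESeq2 (adjusted p = 0.133). The remaining gene of the 8, Uqcrb, had 6, 2 and 4 reads in NP and 2, 0 and 3 reads in LP and was not tested. How reads that match several genes or processed pseudogenes were counted is not given in the sources used here, so values that near-identical copies could share, such as those of Uqcrb, are uncertain.

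Complex IV, cytochrome c oxidase, had subunits that rose and 1 that fell. Of 15 genes 13 were tested, of which 9 were higher and 1 was lower, with a median log2 fold change of 0.50. The summed level went from 1491 ± 47.2 to 1882 ± 26.2 CPM, a ratio of 1.26 and the smallest of the 5 complexes. Cox5a, an early-assembling subunit, measured 21.9, 20.7 and 23.7 CPM in NP and 49.0, 37.8 and 42.6 CPM in LP (0.96, SE 0.12, adjusted p = 1.21e-05). Cox5b, which binds zinc, measured 67.1, 67.4 and 71.2 CPM in NP and 129.5, 116 and 116 CPM in LP (0.81, SE 0.068). Cox7a2 measured 58.8, 56.9 and 48.4 CPM in NP and 94.9, 88.1 and 86.4 CPM in LP (0.72, SE 0.080). Of these 3 genes none overlapped between the groups. Cox4i1, the ubiquitous isoform of the largest nuclear subunit, rose by 0.50 (SE 0.053), from 298 ± 2.06 to 426 ± 17.7 CPM. Cox6c rose by 0.56 (SE 0.078), Cox7c by 0.46 (SE 0.061) and Ndufa4 by 0.44 (SE 0.064).

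At the other end, Cox8a measured 237, 279 and 275 CPM in NP and 225, 227 and 229 CPM in LP. Every LP library lay below every NP library, with NP replicate 1 nearest to them, and the log2 fold change was -0.22 (SE 0.064, adjusted p = 0.0177). The call was lost with replicates 2 and 3 summed (adjusted p = 0.145), without NP replicate 2 (0.082) or NP replicate 3 (0.0755), and without LP replicate 2 (0.0575) or LP replicate 3 (0.0513). Cox6a1 measured 189, 216 and 192 CPM in NP and 181, 173 and 177 CPM in LP, which is a log2 fold change of -0.17 (SE 0.063, adjusted p = 0.0576). It was lower with library totals (adjusted p = 0.0075), with the replicate number as a block (0.0039; 0.0114 with replicates 2 and 3 summed), without NP replicate 1 (0.0229) and without LP replicate 1 (0.0457). Cox7a2l, a relative of Cox7a2 that takes part in joining complexes III and IV, measured 84.6, 90.7 and 91.9 CPM in NP and 89.1, 90.5 and 85.5 CPM in LP (-0.01, SE 0.065). Here the groups overlapped fully. Ndufa4l2 (0.14, SE 0.27) had 15 to 26 reads in a library. Cox4i2, the isoform of lung and hypoxic cells, had 6, 11 and 15 reads in NP and 7, 10 and 3 reads in LP, and Cox6b2, the testis isoform, had 1 to 3 reads in every library, so neither was tested.

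Cox6a1 and Cox8a are the ubiquitous forms of subunits that also have a muscle form coded by a separate gene. Cox6a2, the heart and skeletal muscle form of Cox6a, was counted at 4, 1 and 0 reads in NP, against 653, 631 and 617 reads in LP. Cox8b, the muscle form of Cox8, had 8, 4 and 2 reads in NP and 604, 579 and 572 reads in LP. Both partners thus went from at most 8 reads to at least 572, with log2 fold changes of 8.32 (SE 0.20, adjusted p = 2.2e-15) and 6.79 (SE 0.17, adjusted p = 2.2e-15). With so few NP reads the SE is not reliable here. The sizes of these fitted changes also moved with single NP libraries, by more than the SE. Cox6a2 came to 9.89 without NP replicate 1 and 7.75 without NP replicate 3, and Cox8b to 7.44 and 6.41. Of all Cox6a reads, Cox6a2 took 0.755%, 0.152% and 0% in NP and 53.7%, 52.0% and 51.0% in LP, as a share of reads without regard to transcript length. When both isoforms were added up, Cox6a went from 197 ± 9.89 to 375 ± 20.7 CPM. Cox8b took 1.20%, 0.469% and 0.239% of Cox8 reads in the NP libraries, against 46.2%, 43.2% and 42.7% in LP, and the sum of Cox8a and Cox8b went from 259 ± 27.0 to 409 ± 13.7 CPM. With Cox6a2 and Cox8b included, the summed level of complex IV was 1.51 times as high in LP as in NP. The other muscle isoform, Cox7a1, was not among the genes counted. The change of isoforms moved with the muscle markers described above, and which cells the isoforms came from was not tested. The ADP/ATP carriers, which pass ATP out of the mitochondrion and are no part of the chain, include 1 gene that rose and 1 that fell. Slc25a4, the heart and muscle form, measured 162, 172 and 186 CPM in NP and 1119, 1059 and 1047 CPM in LP (2.63, SE 0.056). Slc25a5, the form of dividing cells, measured 106, 101 and 102 CPM in NP and 75.3, 76.8 and 76.8 CPM in LP (-0.43, SE 0.062, adjusted p = 4.25e-05).

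**Figure D3:**
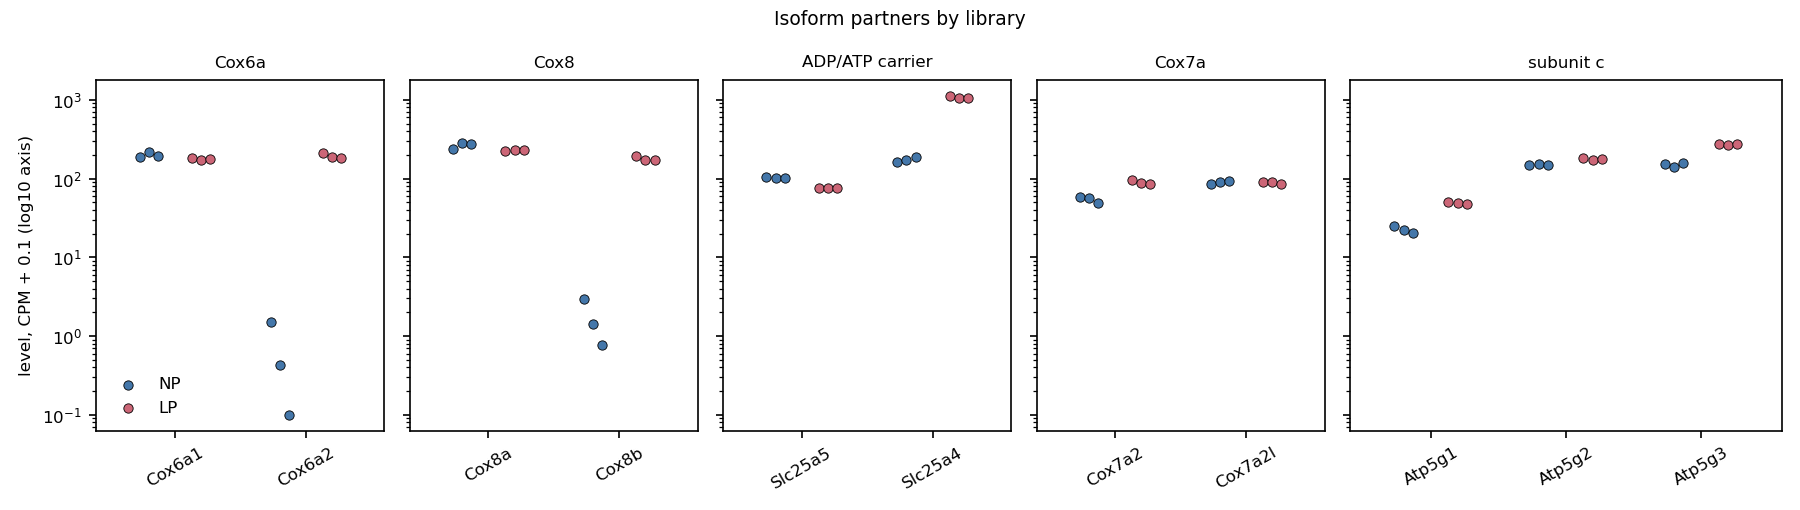
Level of isoform partners in each library (vertical axis, CPM + 0.1, log10 scale), with NP in blue and LP in red. Cox6a2 and Cox8b rise from a few CPM or less to 170.4 to 209 CPM while Cox6a1 and Cox8a stay within 173 to 279 CPM, and of the subunit c genes Atp5g1 changes most and Atp5g2 least.

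In complex V, the ATP synthase, all 15 subunits tested were higher, with a median log2 fold change of 0.57 and a range from 0.22 to 1.12. The summed level went from 3249 ± 39.4 to 5585 ± 176 CPM, a ratio of 1.72. The 5 subunits of the catalytic head and the central stalk had a median of 0.86. Atp5b, the catalytic beta subunit, measured 1159.7, 1169 and 1135 CPM in NP and 2174, 2044 and 2069 CPM in LP, which is a log2 fold change of 0.86 (SE 0.035, adjusted p = 3.3e-12). Atp5a1, the alpha subunit, measured 768, 736 and 733 CPM in NP and 1473, 1338 and 1377 CPM in LP (0.90, SE 0.044), and Atp5c1, the gamma subunit of the central stalk, measured 135, 144 and 147 CPM in NP and 281, 272 and 269.9 CPM in LP (0.95, SE 0.058). The 3 genes had 377 to 6946 reads in a library, and no LP library came near the NP range. Atp5d and Atp5e, which belong to the same 5 subunits, rose by 0.51 (SE 0.069) and 0.64 (SE 0.072). The 10 tested subunits of the membrane part and the peripheral stalk were all higher as well, with a median of 0.52. The difference between these parts was not tested.

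Subunit c, which forms the rotating ring in the membrane, is coded by 3 genes whose mature proteins are identical, and their changes were unequal. Atp5g1 measured 25.1, 22.4 and 20.4 CPM in NP and 50.3, 49.4 and 47.7 CPM in LP, which is a log2 fold change of 1.12 (SE 0.11, adjusted p = 2.94e-07). Atp5g3 measured 155, 139 and 158 CPM in NP and 277, 266 and 274 CPM in LP (0.85, SE 0.061). Atp5g2 measured 150.3, 154 and 149 CPM in NP and 179.8, 171 and 177 CPM in LP (0.22, SE 0.055, adjusted p = 0.00601). All LP libraries lay above all NP libraries in the 3 genes, but Atp5g2 had the lowest change of complex V and was not called by DESeq2 (adjusted p = 0.0651). The sum of the 3 genes went from 326 ± 6.51 to 499.9 ± 10.6 CPM. The next lowest were Atp5h, subunit d of the peripheral stalk (0.33, SE 0.084), and Atp5j2, subunit f of the membrane part (0.39, SE 0.082), neither of which was called by DESeq2 (adjusted p = 0.0966 and 0.063). Atp5hl1, a copy of Atp5h, had at most 1 read in a library and was not tested. Atp5s and Atp5sl, which share only the name stem and are not counted as subunits, had log2 fold changes of 0.01 and 0.12 and were not called.

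**Figure D4:**
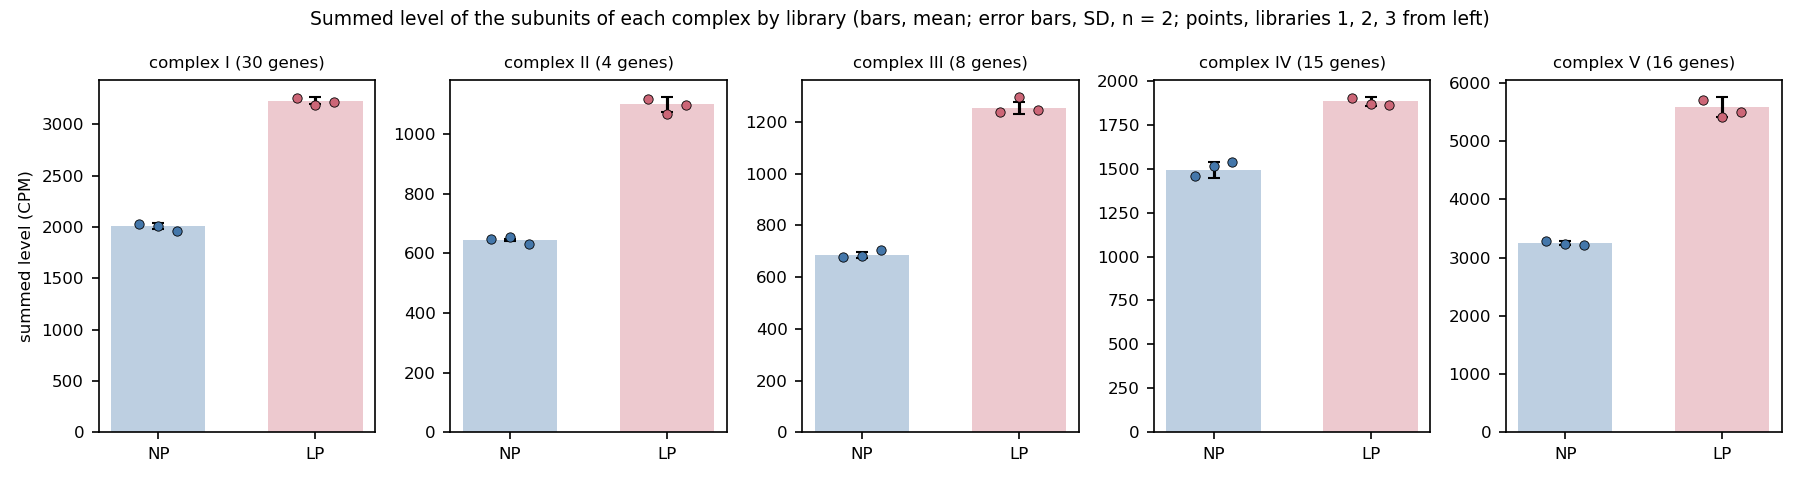
Summed level of the subunits of each complex in CPM (vertical axes from 0, with a separate scale in each panel), as the mean of NP and LP (bars) with the SD (error bars, n = 2) and the 3 libraries (points, replicates 1, 2 and 3 from left to right). LP lies above NP in all 5 panels, by ratios from 1.26 in complex IV to 1.83 in complex III.

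The genes that serve the respiratory chain without being subunits of nuclear origin were read from the same test. All 13 subunits coded in mitochondrial DNA were higher in LP, with log2 fold changes from 0.15 to 0.74. Their median was 0.56, beside 0.56 for the 69 tested nuclear subunits. Mt-co1, the catalytic subunit of complex IV, measured 10660.2, 10472 and 10318 CPM in NP and 17788, 17264 and 17359 CPM in LP (0.74, SE 0.016). Mt-cytb of complex III (0.57, SE 0.021), Mt-cox3 of complex IV (0.56, SE 0.019) and Mt-atp6 of complex V (0.57, SE 0.020) rose by like amounts. Of the 15 tested electron carriers and ubiquinone genes 9 were higher and none was lower, with a median of 0.40. Cycs, cytochrome c, measured 28.3, 32.2 and 33.9 CPM in NP and 69.9, 68.4 and 70.9 CPM in LP (1.14, SE 0.088), and Coq9, needed for ubiquinone synthesis, measured 48.4, 48.0 and 39.9 CPM in NP and 146, 146 and 162 CPM in LP (1.74, SE 0.079). The latter change was larger than that of any of the 79 genes. Etfdh, which feeds electrons from fatty acid oxidation into ubiquinone, rose by 0.92 (SE 0.10).

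The genes that assemble the complexes or serve mitochondria more widely were read in the same way. Of 36 assembly factors 10 were higher (27.8%) and none was lower, with a median log2 fold change of 0.16. Cox10, which makes a precursor of the heme of complex IV, was the largest of those named, at 1.05 (SE 0.11). Of 72 mitochondrial ribosomal proteins 8 were higher and 4 lower (median 0.02), and of 18 import genes 4 were higher and 1 lower (median 0.03), so that 11.1% and 22.2% were higher beside 15.3% of all genes. Among 21 regulators of mitochondrial biogenesis 6 were higher (28.6%) and 1 was lower (4.76%), with a median of 0.19. Ppargc1b, a coactivator of respiratory genes, measured 3.23, 5.26 and 4.28 CPM in NP and 14.4, 13.4 and 13.4 CPM in LP (1.67, SE 0.23, adjusted p = 2.37e-05). Esrra, a nuclear receptor that binds respiratory gene promoters, measured 70.3, 66.4 and 72.5 CPM in NP and 101, 95.2 and 102 CPM in LP (0.51, SE 0.067, adjusted p = 1.4e-05). In contrast Pprc1, a related coactivator, measured 57.0, 50.3 and 58.7 CPM in NP and 32.4, 35.7 and 41.7 CPM in LP (-0.59, SE 0.10, adjusted p = 0.000327). The transcripts of the factors whose letters were searched in the promoters passed no threshold, with log2 fold changes of -0.26 (SE 0.13) for Nrf1 and -0.17 (SE 0.14) for Gabpa, both named after their values were seen. Among 7 genes of the ADP/ATP and phosphate carriers and the outer membrane channels, 4 were higher and 1 lower, including Slc25a3, the phosphate carrier, at 0.60 (SE 0.050), and Vdac1, the main channel, at 0.78 (SE 0.059).

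**Figure D5:**
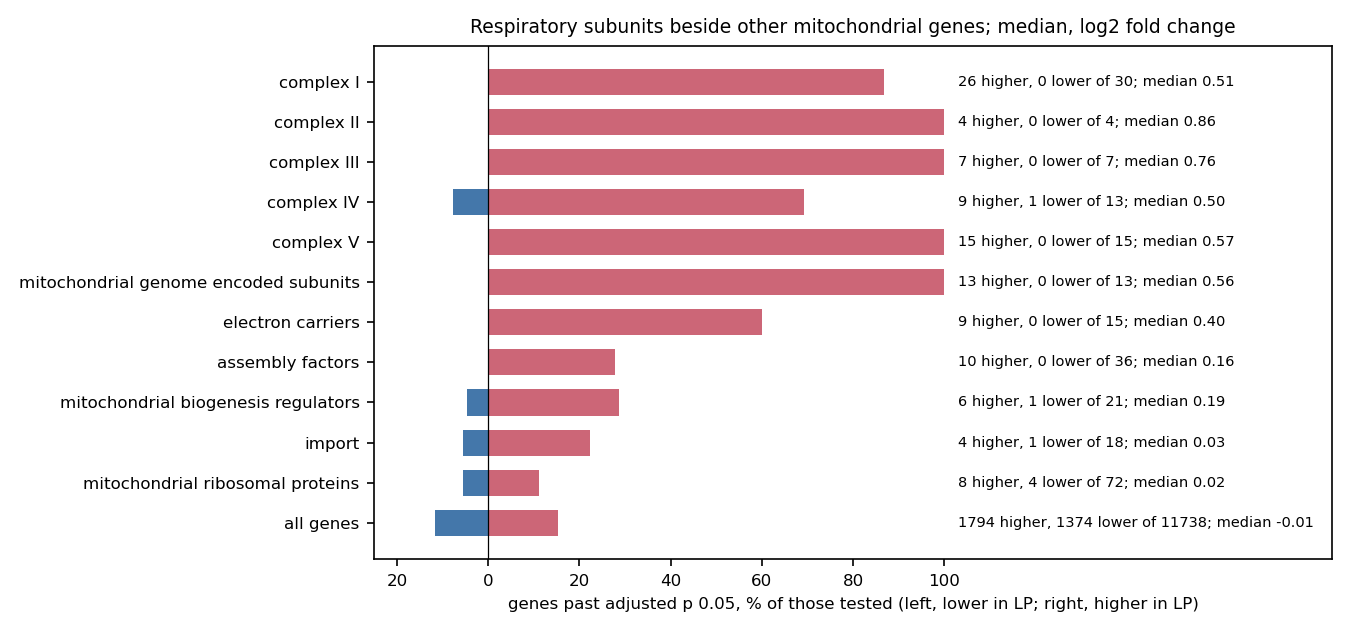
Share of the tested genes of each list that passed an adjusted p of 0.05, in percent (horizontal axis, higher in LP to the right in red, lower to the left in blue), with the counts and the median log2 fold change written beside each bar. The complexes and the subunits coded in mitochondrial DNA lie at 69.2% to 100% higher, the mitochondrial ribosomal proteins at 11.1% and all genes at 15.3%.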

How the data were processed

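Per the labels and the study's methods, the authors mapped reads of TruSeq libraries to the rat genome rn5 with TopHat 1.4.0, counted them on Ensembl gene models with HTSeq-count and deposited the raw counts of each library, without normalization, for 3 NP and 3 LP samples. The strand setting and the treatment of reads matching several genes are not given in the sources used here.

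Members were found by symbol in the 6 tables. The members and lists were chosen with earlier results of these data known. The counts were tested in R 4.3.3 with edgeR 4.0.16 (TMM, filterByExpr, glmQLFit and glmQLFTest) over all 6 libraries without a block, with p-values adjusted by Benjamini-Hochberg over the 11738 genes kept by the filter, and members were read from that fit. No set test was run. CPM used TMM library sizes. A pseudocount of 0.1 CPM was used only for ratios within a replicate. The depth behind each value was 2752144 to 3449857 counted reads per library, and the floor of 3 reads covers counting error only. The steps were tested on simulated data. Promoter windows came from RefSeq (GRCr8), another build than that of the counts, and no coordinates were converted.

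Genes named were the core subunits, the 3 largest and 3 lowest changes of complexes I, III, IV and V, all members past 2-fold or below the filter, isoform partners, and up to 4 genes of each other list with the lowest adjusted p. Some genes that this rule takes in are not reported here.

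Replicates 2 and 3 of each group agreed within sampling noise (chi-square test, p = 0.111 in NP and 0.667 in LP) and were counted as 1 sample in each mean ± SD. Deviations of libraries with the same number from their group means correlated at 0.493, 0.223 and 0.192 for replicates 1, 2 and 3, so the numbers were taken to pair the libraries, from the data and not from a stated design, although replicate 2 of either group correlated with replicate 3 of the other at 0.216 as well. The block with the replicate number was run as an alternative. Further alternatives were DESeq2 1.42.0 and its size factors, TMM without muscle markers and 2-fold genes, library totals, no filter, a mean of at least 50 reads, replicates 2 and 3 summed, and each library left out. Replicate 1 and replicates 2 and 3 taken separately, and the summed libraries with a block, were added after seeing the data.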

Additional observations from a re-analysis of the deposited data

How the results depend on the processing

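The number of genes higher in LP was 61 and lay between 58 and 61 under every edgeR alternative (58 to 60 with 1 library left out) and at 52 of 78 tested under DESeq2. The number past 2-fold lay between 5 and 7. The number lower in LP was 1 and rested on single libraries: it was 3 with library totals, 0 with replicates 2 and 3 summed, 0 to 2 with 1 library left out (0 without NP replicate 2 or 3 or LP replicate 2 or 3, 2 without NP replicate 1 or LP replicate 1), 2 with the replicate block and 2 with the block on summed libraries. The replicate block added Cox6a1 (adjusted p = 0.0039) and changed no other call among the members.

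Scaling by library totals lowered the median log2 fold change to 0.45 over all members tested, 0.44 in complex I, 0.79 in complex II, 0.69 in complex III, 0.43 in complex IV and 0.50 in complex V, and over all genes it turned the split from 1794 higher and 1374 lower to 1461 higher and 2146 lower. The median over members was 0.57 with a mean of at least 50 reads and 0.56 over subunits alone. That of complex IV was 0.52 with the normalization without muscle markers and 2-fold genes, 0.45 with no filter, 0.52 with a mean of at least 50 reads, 0.45 by DESeq2, 0.52 with Ndufa4 and Ndufa4l2 in complex I, and 0.46 to 0.49 with 1 library left out. That of complex II was 0.82 to 0.88 with 1 library left out. The causes of these shifts were not tested, apart from the members that each filter or grouping leaves out. No named gene changed direction with a call. For the genes taken in by the naming rule, 1049 of 1075 values under the alternatives kept their side of the threshold, 21 lost it and 5 passed it. Of the genes named outside the rule, Ndufc2 lost its call in 9 alternatives, Ndufs4 in 7, Ndufa5 and Ndufc1 in 3 each, and Ndufa2 in 1.

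The limits are 3 libraries a group of which 2 agree within sampling noise, a depth at which 3 reads correspond to 0.893 to 1.08 CPM, no transcript lengths, and muscle RNA that cannot be told apart from pregnancy.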
